A study of Homo sapiens with 9 samples.

Results

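The genes described here are 10 selective autophagy receptors, SQSTM1, OPTN, NBR1, CALCOCO2, TAX1BP1, NCOA4, TOLLIP, RETREG1, TEX264 and FUNDC1, out of 58395 genes listed for each library. They were chosen by name for their roles, with no threshold on expected count or TPM, and matched by Ensembl identifier to symbol. The list was drawn up with earlier results of these libraries known, so the differences and adjusted p-values below describe where each gene stood in a fit across all genes and are not independent evidence about the list. RNA was sequenced from HCT116, an established human colon carcinoma line, in 9 libraries. All of the cells carried a hairpin RNA against STBD1 (shSTBD1), delivered by lentivirus and kept as drug-selected stable lines. The 3 groups, with 3 libraries each, carried the empty plvx neo vector or STBD1 resistant to the hairpin, as STBD1 WT or as STBD1 W203C. In STBD1 W203C the tryptophan W203 of STBD1 is replaced by cysteine. The methods of the study call the 3 libraries of a group biological replicates, while each group was 1 stable line, so every p-value measures the spread within these lines, and the effect of a construct cannot be told apart from any other difference between the lines. The deposited tables are named with STBD1 WT and STBD1 W203C exchanged relative to the sample titles. Groups here follow the titles, and if the table names were right instead, every direction between the constructs would turn around and each value given for one construct against plvx neo would be that of the other.

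Selective autophagy receptors are adaptor proteins that hold a cargo on one side and, on the other, an ATG8 family protein (LC3 or GABARAP) on the growing autophagosome membrane. The contact with ATG8 proteins is usually made by a short LC3-interacting region (LIR), a core of 4 residues that opens with an aromatic residue and ends with a branched aliphatic one. Receptors of the SQSTM1 type (SQSTM1, OPTN, NBR1, CALCOCO2, TAX1BP1 and TOLLIP) bind ubiquitin on aggregates, damaged mitochondria or bacteria, NCOA4 carries ferritin, RETREG1 and TEX264 mark portions of the endoplasmic reticulum, and FUNDC1 sits in the mitochondrial outer membrane. STBD1 itself binds glycogen and reaches ATG8 proteins through a LIR that opens with W203.

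The coding sequences of 4 receptors whose counts differed between STBD1 W203C and STBD1 WT are printed beside that of STBD1, because the constructs differ in this very element. Each stretch holds 54 bases of the reference (hg38, canonical transcript of GENCODE v44), 7 codons before to 7 codons after the LIR core, and the capitals mark the 4 codons of the core. The motifs are those the study compiled from earlier experiments, and the residue numbers were found by searching the translated transcript.
STBD1: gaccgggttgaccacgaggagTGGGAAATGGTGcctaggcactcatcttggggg
SQSTM1: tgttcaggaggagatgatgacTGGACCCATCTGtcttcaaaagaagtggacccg
OPTN: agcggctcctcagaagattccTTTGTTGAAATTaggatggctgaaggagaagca
NBR1: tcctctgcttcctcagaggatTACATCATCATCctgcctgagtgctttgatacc
FUNDC1: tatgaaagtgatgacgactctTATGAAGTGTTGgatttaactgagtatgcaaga
The STBD1 stretch lies in exon 2 of 2 at chr4:76309509-76309562 (plus strand) and its core opens with W203, so the tryptophan that W203C removes is the first residue of the core. In SQSTM1 the core covers residues 338 to 341, in exon 7 of 8 (chr5:179833608-179833661, plus strand), and also opens with the tryptophan codon TGG. The OPTN core, at residues 178 to 181, opens with a phenylalanine codon, and its stretch is split between exon 5 (chr10:13112594-13112635) and exon 6 (chr10:13116267-13116278) on the plus strand. The NBR1 core shown covers residues 732 to 735 (exon 17 of 21, chr17:43200313-43200366, plus strand) and that of FUNDC1 residues 18 to 21 (exon 2 of 5, chrX:44542046-44542099, minus strand), and both open with a tyrosine codon. Among all 10 receptors, the compiled list held 13 human LIRs in 9 of them and none for NCOA4. Of these 13, the core opened with tryptophan in 5, phenylalanine in 4, tyrosine in 2 and with none of these in 2, one in CALCOCO2 and one in TAX1BP1. In 10 of the 13, at least 1 of the 3 residues before the core was acidic.

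Libraries held 16.9 to 23.3 M expected counts (M, mega), and replicate spread was small, with a biological coefficient of variation of 4.05% to 4.21% in the 3 comparisons. STBD1 checks the labels. It stood at 2.75, 3.84 and 3.21 TPM (a relative transcript level scaled by transcript length) in the plvx neo libraries, at 10.79, 10.79 and 10.91 in STBD1 WT and at 8.75, 8.37 and 10.33 in STBD1 W203C, so both constructs lay above the vector without overlap. FAM47E-STBD1, which covers STBD1 by 4397 bases on the same strand, rose by 4.06 (STBD1 WT) and 3.78 (STBD1 W203C) on the log2 scale against plvx neo, and STBD1 by 1.73 and 1.45, and how reads of the constructs were divided between the 2 genes was not tested. These levels do not show which of the 2 constructs a line carried and do not settle which of the 2 names is right. Of 7 epithelial markers 6 were expressed, including EPCAM at 179 to 226 TPM, while VIL1 was at or near 0. The leukocyte marker PTPRC was at or near 0 in every library.

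In plvx neo cells the receptors covered a wide range of levels per transcript length. SQSTM1, the ubiquitin-binding scaffold also called p62, was the most abundant at 246 ± 36.6 TPM (SD, n = 3, as for every group mean here), followed by CALCOCO2 (NDP52, a receptor for ubiquitin-coated bacteria and mitochondria) at 70.2 ± 4.90 TPM. TAX1BP1 (40.6 ± 2.11 TPM), NCOA4 (39.2 ± 1.55) and TEX264 (36.9 ± 2.55) stood close together, and their ranges over the 3 libraries overlapped. NBR1 stood at 24.2 ± 0.910 TPM, FUNDC1 at 18.2 ± 1.69 and TOLLIP at 15.3 ± 1.01. OPTN, at 9.34 ± 0.958 TPM, and RETREG1, at 2.90 ± 0.725 TPM, were the least abundant. The order changed in the lines with STBD1 at 1 gene above all, since OPTN stood at 32.3 ± 1.81 TPM in STBD1 WT, above NBR1 (27.5 ± 0.385), and at 19.9 ± 0.616 TPM in STBD1 W203C, below NBR1 (22.9 ± 1.83). SQSTM1 remained first and RETREG1 last in every line.

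The receptors other than SQSTM1, OPTN, NBR1 and FUNDC1 are given by their range over all 9 libraries. CALCOCO2 (chr17:48831018-48866522, plus strand) lay between 79.4 and 94.6 normalised CPM (counts scaled to library size after TMM) and TAX1BP1 (chr7:27739331-27844564, plus strand) between 86.2 and 96.8. NCOA4 (chr10:46005088-46030623, minus strand) lay between 117 and 131, TOLLIP (chr11:1274371-1309654, minus strand), which links ubiquitin to endosomes, between 28.0 and 32.9, and TEX264 (chr3:51662693-51704323, plus strand) between 33.8 and 38.8. RETREG1 (chr5:16473038-16617101, minus strand) ranged from 5.91 to 8.84 and had a coefficient of variation between replicates of 6.26% to 12.5% in the 3 lines, where SQSTM1 had 1.98% to 2.58% and FUNDC1 1.39% to 11.7%.

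**Figure D1:**
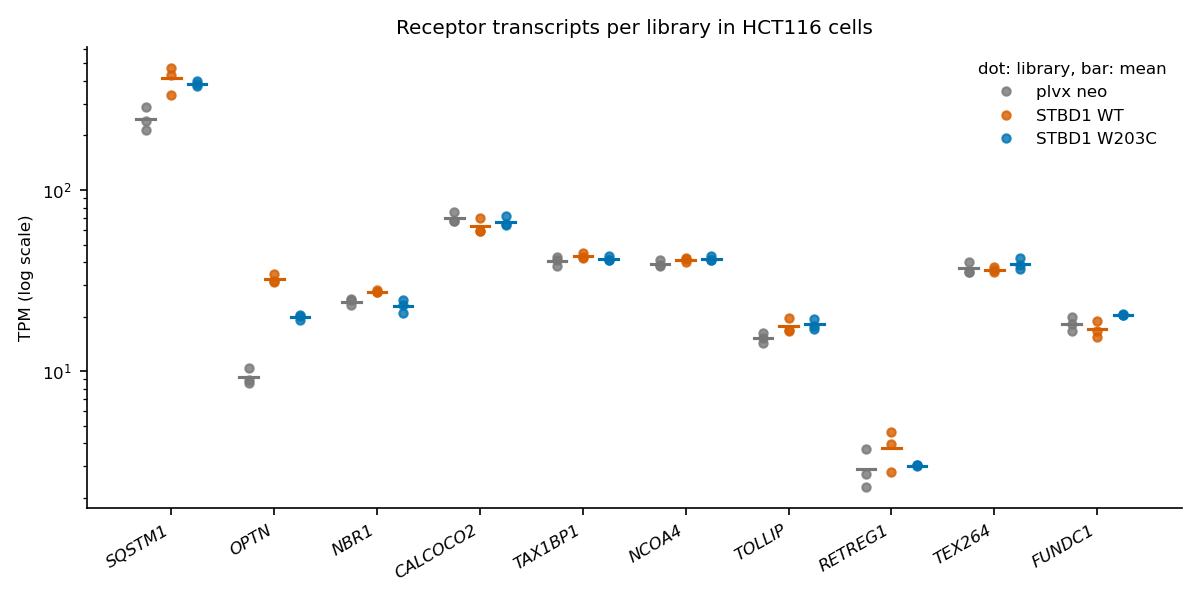
TPM on a log axis of the 10 receptor genes (x axis) in each library, with dots for the 3 libraries of plvx neo (grey), STBD1 WT (orange) and STBD1 W203C (blue) and a bar at each group mean. OPTN separates into 3 levels (9.34, 32.3 and 19.9 TPM) and SQSTM1 lies lowest in plvx neo, while the means of the other receptors differ less from plvx neo. TOLLIP in plvx neo (14.3 to 16.31 TPM) also lies below STBD1 WT (16.65 to 19.55) and STBD1 W203C (17.16 to 19.51).

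Which receptors differ when STBD1 is put back into depleted cells was read from STBD1 WT against plvx neo. SQSTM1, OPTN and NBR1 were higher in STBD1 WT, by 1.76-fold, 3.27-fold and 1.13-fold, and none of the 10 was lower, by edgeR at an adjusted or unadjusted p below 0.05 (0 genes each) or by DESeq2 (0). These 3 of 10 stand beside 13.9% of all 15289 genes tested that were higher and 13.9% that were lower at a Benjamini-Hochberg adjusted p below 0.05 (edgeR quasi-likelihood F-test). The median log2 fold change of the 10 was 0.08, against 0.01 for all genes tested, and the median of its absolute value was 0.11 against 0.15. Most receptors therefore sat near the centre of all genes, and the count rests on the 3 named. All 10 passed the filter on low counts in each comparison.

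OPTN, which links ubiquitin on mitochondria and bacteria to LC3 and is activated by the kinase TBK1, moved furthest. Its normalised CPM were 17.2, 18.8 and 19.7 in plvx neo and 61.8, 60.9 and 59.3 in STBD1 WT. Every STBD1 WT library lay far above every plvx neo library. The log2 fold change was 1.71 (SE 0.0639, adjusted p = 1.11e-13), which ranked 40 of 15289 by size. OPTN (ENSG00000123240) lies on the plus strand of chr10:13099449-13138308, and overlaps CCDC3 on the other strand by 204 bases. CCDC3 had a log2 fold change of -0.16 and did not pass (adjusted p = 0.136). How many reads it shared with OPTN was not tested.

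SQSTM1, which gathers ubiquitinated cargo into condensates and also holds KEAP1, the inhibitor of the antioxidant factor NFE2L2, stood at 375, 361 and 367 normalised CPM in plvx neo and at 647, 663 and 629 in STBD1 WT. The groups were far apart and each varied little. The log2 fold change was 0.82 (SE 0.0358, adjusted p = 1.43e-12), ranked 450 of 15289. SQSTM1 (ENSG00000161011, plus strand of chr5:179806398-179838078) overlaps MGAT4B by 555 bases and MRNIP by 2946 bases, both on the other strand, and whether counting used the strand was not stated. MRNIP (0.33, adjusted p = 0.00124) and MGAT4B (0.27, adjusted p = 9.64e-04) also rose, by less, and their levels were lower, with means over the 9 libraries of 34.2 and 128 CPM. How many reads these genes shared was not tested.

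NBR1, a larger relative of SQSTM1 that joins it in ubiquitin condensates, stood at 80.2, 82.4 and 81.7 normalised CPM in plvx neo and at 92.1, 92.6 and 90.1 in STBD1 WT. The rise was small, with a log2 fold change of 0.17 (SE 0.0427, adjusted p = 0.00443), but no library of one group reached the other. On log2(TPM + 1) with limma it was of the same size and no longer passed (0.18, adjusted p = 0.0893). NBR1 (ENSG00000188554, plus strand of chr17:43170481-43211689) overlaps a noncoding gene, ENSG00000267002, on the other strand, at -0.10 (adjusted p = 0.547).

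The remaining receptors did not pass. TAX1BP1, a receptor for aggregates and ferritin that is related to CALCOCO2, was the nearest to the threshold at 0.09 (adjusted p = 0.128), and its normalised CPM of 88.0 to 90.9 in plvx neo and 93.5 to 96.8 in STBD1 WT did not overlap. JAZF1, which overlaps TAX1BP1 by 13992 bases on the other strand, was at 0.15 (adjusted p = 0.512). NCOA4, the ferritin receptor, was at 0.07 (adjusted p = 0.210). After a correction for GC content and transcript length both passed (0.13, adjusted p = 0.00792, and 0.10, adjusted p = 0.0410), which brings the count to 5 of 10. With that correction 2071 of all 15289 genes tested were higher and 2520 lower, against 2128 and 2126 without it. CALCOCO2 (-0.07), TOLLIP (0.04), TEX264 (-0.08) and FUNDC1 (-0.13) had adjusted p-values of 0.248, 0.753, 0.363 and 0.348. RETREG1, an endoplasmic reticulum receptor at under 10 normalised CPM in every library, was at 0.23 with a 95% interval of -0.05 to 0.50 (adjusted p = 0.224), an interval that also holds the difference seen for NBR1. Groups of normalised CPM did not overlap for 4 receptors, all higher in STBD1 WT (SQSTM1, OPTN, NBR1 and TAX1BP1), where 40.4% of all genes tested did not overlap.

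What differs when the first residue of the STBD1 LIR is changed was read from the 2 constructs, STBD1 W203C against STBD1 WT. STBD1 itself was lower in STBD1 W203C (-0.28, adjusted p = 0.0095), as was FAM47E-STBD1 (-0.27, adjusted p = 0.00113). The changed residue and the lower STBD1 level therefore cannot be told apart. SQSTM1, OPTN and NBR1 were lower in STBD1 W203C (0.82-fold, 0.62-fold and 0.83-fold) and FUNDC1 was higher (1.19-fold). Of all 15052 genes tested, 13.4% were lower and 14.5% higher. The median log2 fold change of the 10 was -0.07 against -0.01 for all genes, and the median absolute value 0.17 against 0.15.

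OPTN stood at 37.6, 36.3 and 38.6 normalised CPM in STBD1 W203C, below all 3 STBD1 WT libraries (59.3 to 61.8) and above all 3 plvx neo libraries (17.2 to 19.7). The log2 fold change against STBD1 WT was -0.69 (SE 0.0534, adjusted p = 6.92e-09). SQSTM1 stood at 544, 523 and 526 normalised CPM, likewise between the other lines, with a log2 fold change of -0.28 (SE 0.0362, adjusted p = 6.34e-06). NBR1, at 78.7, 75.7 and 73.4 normalised CPM, lay below STBD1 WT (-0.27, SE 0.0438, adjusted p = 9.12e-05) and slightly below plvx neo. These 3 genes therefore shared a direction but not a level, since NBR1 alone of them was not above the vector. MRNIP (-0.24, adjusted p = 0.0079) and MGAT4B (-0.11, adjusted p = 0.0386), which overlap SQSTM1 on the other strand, were lower in STBD1 W203C too. How many reads they shared with SQSTM1 was not tested.

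FUNDC1 (chrX:44523639-44542859, minus strand), a mitophagy receptor whose LIR is switched by phosphorylation, gave the one rise. Its normalised CPM were 17.7, 17.8 and 18.2 in STBD1 W203C against 14.9, 13.9 and 16.7 in STBD1 WT and 18.7, 14.8 and 16.3 in plvx neo. The log2 fold change from STBD1 WT was 0.25 (SE 0.0859, adjusted p = 0.0369), and this call is weak. It was lost with DESeq2 (adjusted p = 0.10), with all 9 libraries in 1 fit (adjusted p = 0.0524) and in 5 of the 6 fits that left out 1 library, where the adjusted p was 0.0602 to 0.187, the exception being STBD1 WT replicate 3. Of the receptors that did not pass, RETREG1 was at -0.26 (95% interval -0.54 to 0.01, adjusted p = 0.151) and TEX264 at 0.08 (adjusted p = 0.323). CALCOCO2 (-0.07), TAX1BP1 (-0.07), NCOA4 (-0.03) and TOLLIP (0.00) had adjusted p-values of 0.286, 0.227, 0.638 and 0.989. Normalised CPM of the 2 groups did not overlap for 7 receptors, 5 lower and 2 higher, where 41.3% of all genes tested did not overlap.

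The comparison of STBD1 W203C with plvx neo shares its libraries with the other comparisons and is given beside them. OPTN (2.02-fold) and SQSTM1 (1.44-fold) were higher in STBD1 W203C, none of the 10 was lower by edgeR or DESeq2 (2 at an unadjusted edgeR p below 0.05, NBR1 and CALCOCO2), and 3.03% of 15081 genes tested were higher and 2.67% lower. The log2 fold change of OPTN was 1.01 (SE 0.0716, adjusted p = 9.49e-10) and that of SQSTM1 0.53 (SE 0.0350, adjusted p = 3.04e-10). NBR1 was at -0.10 (adjusted p = 0.236) and CALCOCO2 at -0.15 (adjusted p = 0.0770). Without plvx neo replicate 1, which had the lowest CALCOCO2 of its line, that gene passed at -0.18 (adjusted p = 0.0425). The other 6 receptors lay between -0.04 and 0.11 with adjusted p-values of 0.562 to 0.992. Groups did not overlap for SQSTM1 and OPTN, which were higher, and for NBR1 and CALCOCO2, which were lower, against 23.5% of all genes. The median log2 fold change was 0.02 for the 10 and 0.00 for all genes.

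**Figure D2:**
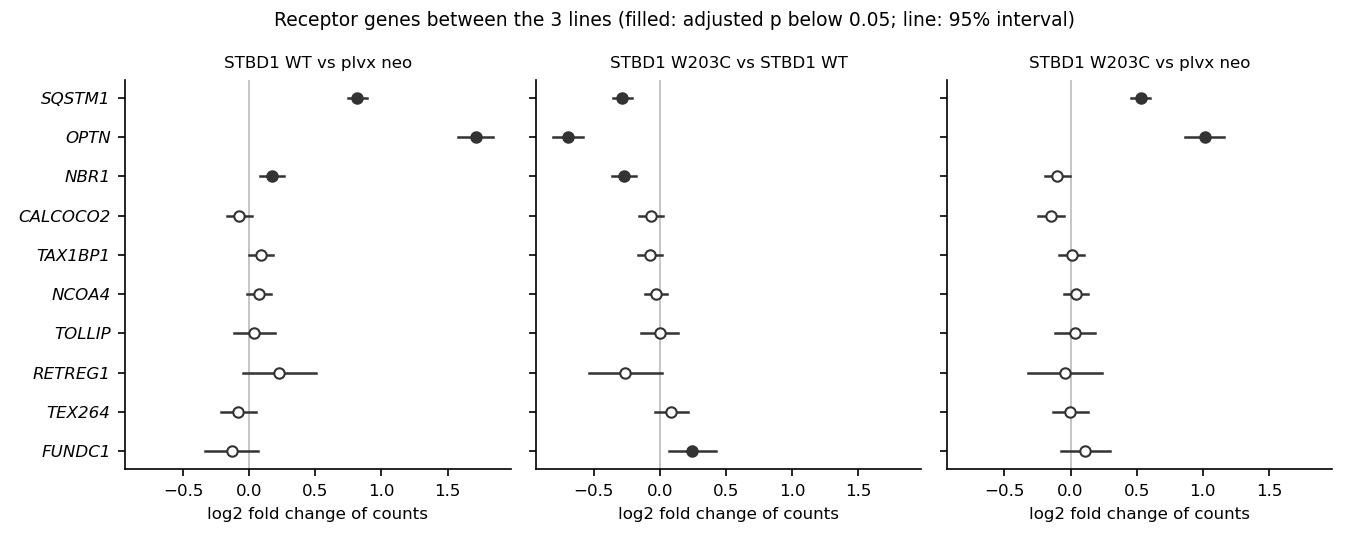
Log2 fold change of counts (x axis) of the 10 receptors (y axis) in each comparison, as points with 95% intervals, filled where the adjusted p was below 0.05. OPTN and SQSTM1 are filled in all 3 panels (OPTN at 1.71, -0.69 and 1.01, SQSTM1 at 0.82, -0.28 and 0.53), NBR1 in the first 2 and FUNDC1 in the second.

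The level of SQSTM1 per transcript length did not follow its counts in every library. The gene tables give a transcript length weighted by the estimated use of each transcript. TPM scales the count by transcript length and over the whole library. For SQSTM1 this length was 1837, 2036 and 1609 bases in plvx neo, 1682, 1842 and 2228 in STBD1 WT libraries and 1811, 1660 and 1712 in STBD1 W203C. In plvx neo and STBD1 WT, the spread between replicates was thus wider than the differences between the line means (1827, 1917 and 1728 bases). STBD1 WT replicate 3 had the longest value and the lowest TPM of its group, at 336 against 471 and 432, although its normalised CPM of 629 was close to 647 and 663. In TPM, STBD1 W203C (373, 402 and 382) lay within the STBD1 WT range, and limma on log2(TPM + 1) gave -0.09 (adjusted p = 0.660) for STBD1 W203C vs STBD1 WT where the counts gave -0.28. The rise over plvx neo (239, 214 and 286 TPM) did not overlap on either scale. An exact permutation test, two-sided, on 3 against 3 libraries cannot give a p below 0.1, which is what such a separation gives.

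**Figure D3:**
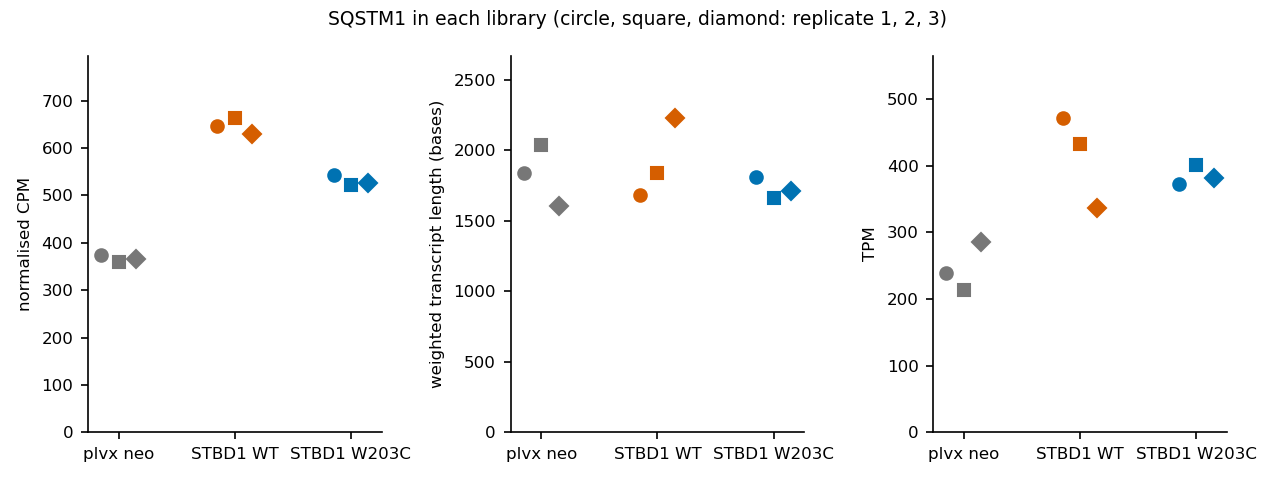
SQSTM1 in each library of the 3 lines (x axis) as normalised CPM, as weighted transcript length in bases and as TPM, with each axis starting at 0 and the symbol giving the replicate. The diamond of STBD1 WT (replicate 3) is highest in length at 2228 bases and lowest of its line in TPM at 336, while its CPM of 629 lies with the others.

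Weighted transcript length was also read for each receptor. TPM is scaled by transcript length, so this readout is not independent of the TPM values above. OPTN had 2258 to 2468 bases in plvx neo, 2129 to 2279 in STBD1 WT libraries and 2215 to 2297 in STBD1 W203C, which overlapped. Of the 10 receptors, 2 did not overlap between STBD1 WT and plvx neo, beside 10.4% of all genes tested, and none did in the other comparisons, beside 9.67% for the 2 constructs and 9.81% for STBD1 W203C vs plvx neo. TEX264, whose LIR lies in a cytosolic tail beyond its membrane anchor, averaged 1251 ± 5.7 bases in STBD1 WT and 1289 ± 7.1 in plvx neo. It also overlaps RAD54L2 by 5975 bases on its own strand, so its counts are uncertain. RAD54L2 was at -0.17 (adjusted p = 0.0426) in STBD1 WT vs plvx neo and at 0.21 (adjusted p = 0.00813) in STBD1 W203C vs STBD1 WT. In STBD1 W203C vs plvx neo it was at 0.04 (adjusted p = 0.747). How many reads it shared with TEX264 was not tested. FUNDC1 averaged 1188 ± 1.7 bases in STBD1 WT and 1196 in every plvx neo library. Both shifts in length, of TEX264 and of FUNDC1, are small beside the lengths themselves.

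Across the 9 libraries, SQSTM1 and OPTN had the most similar profiles of any pair of receptors (Pearson r = 0.991 of log2 CPM). This is a description, since the libraries fall into 3 lines and the points within a line share it. Among the 11317 genes that averaged 5 CPM or more, the 5 closest to SQSTM1 were NFKB2 (r = 0.995), PLEC (0.994), OPTN (0.991), IKBKE (0.989) and FASN (0.989). The 5 closest to OPTN were BIRC3 (0.996), PARP9 (0.994), CYLD (0.993), NFKB2 (0.993) and TNFAIP2 (0.992). NFKB2, a subunit gene of the NF-kB family, was in both lists and averaged 43.5 TPM in plvx neo, 110 in STBD1 WT libraries and 79.7 in STBD1 W203C. BIRC3, an inhibitor of apoptosis, averaged 1.04, 10.4 and 4.46 TPM. NBR1 was less close to SQSTM1 (0.47) and to OPTN (0.52).

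Since SQSTM1 and OPTN moved together, the 100 bases before a start site of each are printed, with matches to the motifs searched in capitals (RefSeq promoters, hg38, plus strand).
SQSTM1: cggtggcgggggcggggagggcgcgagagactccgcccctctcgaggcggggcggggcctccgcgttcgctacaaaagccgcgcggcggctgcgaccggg
OPTN: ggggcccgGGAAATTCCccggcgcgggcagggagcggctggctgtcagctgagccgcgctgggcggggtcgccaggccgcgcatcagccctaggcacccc
The SQSTM1 stretch is chr5:179820805-179820904 and the OPTN stretch chr10:13100063-13100162. The search covered 250 bases before to 50 after each RefSeq start, on both strands, for TGACNNNGC (the core of the antioxidant response element), CACGTG (an E-box bound by factors of the TFEB type) and GGNNNTTCC (a loose form of the NF-kB site). All 10 receptors had a promoter in the table, 18 windows in all. OPTN held GGAAATTCC at chr10:13100071-13100079, which lies in both of its windows and matches the motif on either strand. None of the 3 motifs was found in the 3 windows of SQSTM1, which says only that these letters are not there. GGNNNTTCC was in 5 of the 18 windows (OPTN, NBR1, TOLLIP and FUNDC1) and in 20.1% of all 35116 promoter windows. TGACNNNGC was in 4 of the 18 (CALCOCO2, NCOA4, TOLLIP and RETREG1) and in 13.3% of all, and CACGTG in 0 of the 18 and in 7.26% of all. No match to one motif overlapped a match to another. A match is a description of the sequence and not a binding site.

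Other receptors, their ATG8 partners, regulators and cargoes were read from lists of named genes. Of 17 other selective autophagy receptors, all tested, 7 were higher and 3 lower in STBD1 WT than in plvx neo, 1 was higher and 8 lower in STBD1 W203C than in STBD1 WT, and 1 was higher and 2 lower in STBD1 W203C than in plvx neo. The shares of all genes tested were 13.9% higher and 13.9% lower, 14.5% and 13.4%, and 3.03% and 2.67%, in the same order. The 17 include STBD1, the introduced gene, so its count as higher in both comparisons with plvx neo was set by the design. It was the only gene of the list counted as higher in STBD1 W203C than in plvx neo. Between the constructs it was among the 8 lower. Besides STBD1 itself, CALCOCO1 (a receptor for endoplasmic reticulum and Golgi, 0.58 and -0.59) and the mitophagy receptor BNIP3L (0.50 and -0.67) moved most in the first 2 comparisons. BNIP3, the close relative of BNIP3L, fell by 0.49 on the log2 scale in STBD1 W203C against STBD1 WT. Against plvx neo, BNIP3 (-0.23, adjusted p = 0.0227) and BNIP3L (-0.18, adjusted p = 0.044) were lower in STBD1 W203C by edgeR, where OPTN and SQSTM1 were higher. By DESeq2 only 1 gene of the list was lower there. The median of the 17 was 0.10, -0.07 and -0.02, beside 0.01, -0.01 and 0.00 for all genes.

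Of 7 ATG8 family genes, which encode the proteins the LIRs bind, 5 were tested. MAP1LC3B rose in STBD1 WT (0.24, adjusted p = 2.51e-04) and was lower in STBD1 W203C than in STBD1 WT (-0.21, adjusted p = 4.80e-04). The other calls, named after their values were seen, were GABARAP in the first comparison (0.13, adjusted p = 0.0366) and GABARAPL1 in the second (-0.28, adjusted p = 0.00267). In the first comparison 2 genes of the family were higher by edgeR and 1 by DESeq2. None of the 5 passed in STBD1 W203C vs plvx neo by edgeR or DESeq2. At an unadjusted edgeR p below 0.05, 2 of them were lower there and 0 higher. At an adjusted p below 0.05, 13.9% of all genes tested were higher and 13.9% lower in the first comparison. The shares were 14.5% and 13.4% in the second and 3.03% and 2.67% in the third. The medians of the 5 were 0.15, -0.12 and 0.02, beside 0.01, -0.01 and 0.00 for all genes.

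Of 22 kinases, regulators and partners, 21 were tested, with 4 higher and 4 lower in STBD1 WT than in plvx neo, 6 higher and 4 lower in STBD1 W203C than in STBD1 WT, and 3 higher and 0 lower in STBD1 W203C than in plvx neo. The last count was 3 lower by edgeR at an unadjusted p below 0.05 and 1 lower by DESeq2. Over all genes tested the same shares hold as above, 13.9% in each direction in the first comparison, so these counts are given as a description. TNFAIP3, a ubiquitin-editing enzyme that TAX1BP1 helps to recruit, averaged 2.13 ± 0.594 TPM in plvx neo, 6.24 ± 1.59 in STBD1 WT libraries and 3.79 ± 0.252 in STBD1 W203C. Its log2 fold changes were 1.49, -0.36 and 1.12, with adjusted p-values of 4.56e-09, 0.0103 and 4.43e-06. TNIP1, a ubiquitin-binding partner of TNFAIP3, was at 0.72, -0.45 and 0.27 and passed in each. TNFAIP3 and TNIP1 thus showed the order of OPTN and SQSTM1, with STBD1 W203C between the other lines. PINK1, the kinase that marks damaged mitochondria for OPTN and CALCOCO2, rose in STBD1 WT (0.57, adjusted p = 1.20e-07) and was lower in STBD1 W203C than in STBD1 WT (-0.57, adjusted p = 6.52e-08). PGAM5, the phosphatase that acts on FUNDC1, was higher in STBD1 W203C than in STBD1 WT (0.38, adjusted p = 2.23e-06). FUNDC1 was higher there too, by the weak call described above. PGAM5 was also lower in STBD1 WT than in plvx neo (-0.28, adjusted p = 9.62e-05), where FUNDC1 did not pass (adjusted p = 0.348).

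Of the partners of SQSTM1 and OPTN, KEAP1, NFE2L2 and TBK1 did not share their pattern. KEAP1, the SQSTM1 partner, was lower in STBD1 WT than in plvx neo (-0.15, adjusted p = 0.0172) and higher in STBD1 W203C than in either (0.36, adjusted p = 1.30e-06, and 0.20, adjusted p = 0.00428), where SQSTM1 was lowest in plvx neo. NFE2L2, which drives transcription of SQSTM1, passed only in STBD1 W203C vs STBD1 WT (0.17, adjusted p = 0.00370). TBK1, the kinase of OPTN, averaged 16.7 ± 0.990, 15.7 ± 0.434 and 17.6 ± 0.511 TPM and passed in none of the comparisons (adjusted p = 0.103, 0.0674 and 0.950). The median of the 21 was -0.01, 0.02 and 0.07.

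Among the cargo genes, the ferritin chains FTH1 (0.12) and FTL (0.17), which NCOA4 delivers to the lysosome, rose in STBD1 WT and, against plvx neo, again in STBD1 W203C (0.13 and 0.17), and their adjusted p-values were 0.0281, 0.00133, 0.0429 and 0.00216. Between the constructs both were at 0.01 (adjusted p = 0.905 and 0.932). NCOA4 itself passed in none of these comparisons.

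**Figure D4:**
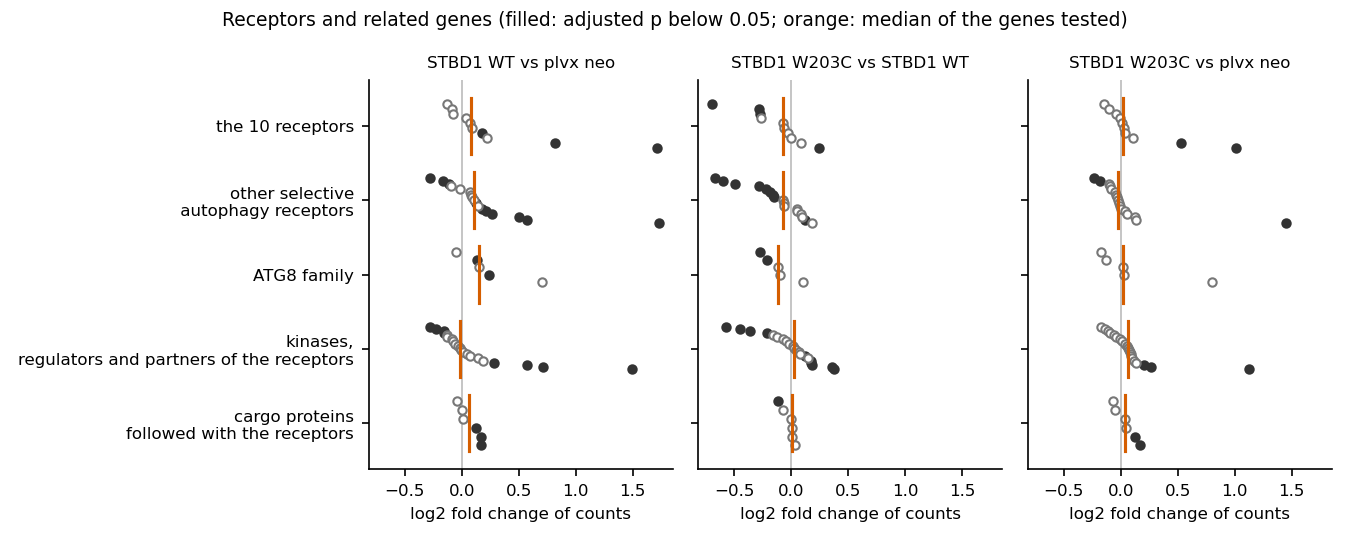
Log2 fold change of counts (x axis) of each gene tested in the 10 receptors and 4 related lists (y axis) for each comparison, filled where the adjusted p was below 0.05, with an orange line at the median of each list. Most genes lie within a narrow band around 0, and OPTN at 1.71 stands apart in the first panel with STBD1 (1.73) and TNFAIP3 (1.49).

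Markers of other cell types were read beside these results. In bulk RNA, fewer cells of a type and less RNA per cell cannot be told apart. Of 5 leukocyte markers only CD68 reached 1 TPM, and the sum of the 5 was 2.58 to 2.62 TPM in plvx neo, 4.38 to 7.48 in STBD1 WT libraries and 2.32 to 2.81 in STBD1 W203C, so that CD68 (1.01, adjusted p = 2.14e-04, in STBD1 WT vs plvx neo) moved in the direction of OPTN. In STBD1 W203C, where OPTN was also above plvx neo, CD68 was not (-0.47, adjusted p = 0.260). The 6 fibroblast markers, of which only COL1A1 reached 1 TPM, summed to 13.9 to 16.6, 16.7 to 21.8 and 12.8 to 18.3 TPM in the same order. The 3 endothelial markers summed to at most 0.22 TPM, and the 7 epithelial markers, which moved both ways, to 3798 to 3898, 3393 to 3528 and 3177 to 3437 TPM. In STBD1 WT vs plvx neo, KRT8 (-0.43), KRT18 (-0.44) and EPCAM (-0.11) were lower and KRT19 (0.43) and CDH1 (0.27) higher. The part of these markers in the result was not tested.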

How the data were processed

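RNA-seq of 9 HCT116 libraries (3 per group, groups and replicate numbers from the sample titles) was analysed. Per the methods of the study and the labels, low-quality, poly-N and adapter reads were discarded and the authors aligned the others with STAR 2.7.1a to hg38 with Ensembl release 93 gene models, and ran RSEM 1.3.1. The deposited gene tables give the expected count and the TPM of each gene, with its weighted transcript length. Use of strand was not stated. Symbols matched 57754 of 58395 identifiers (98.9%).

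Expected counts were rounded and each pair of groups fitted alone with edgeR 4.0.16 in R 4.3.3 (filterByExpr, scaling by TMM, a trimmed mean, and the quasi-likelihood F-test, two-sided). Benjamini-Hochberg adjustment ran over all genes tested, with calls at an adjusted p below 0.05. SE is the absolute log2 fold change divided by the square root of F. Every log2 fold change not said to come from another tool is from this fit. Alternatives were DESeq2 1.42.0, other scaling, no filter, all 9 libraries, limma 3.58.1 on log2(TPM + 1) and log2(TPM + 0.1), a GC content and length correction, a replicate block and leaving out each library. Likeness used log2 CPM with a prior count of 2. The fits were tested on simulated data.

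The 10 receptors and all lists were chosen with earlier results of these data known. All 10 are named, as are STBD1, the direct partners FTH1, FTL, TBK1, KEAP1 and NFE2L2, and genes of a list that passed and were among its 3 largest absolute changes. Some genes overlapping a receptor or STBD1 and some marker genes were named beside the results they touch. Of the cargo list the ferritin chains are given, and the rest of its results is not reported here. LIRs are printed as coding sequence, since no protein sequences were used here.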

Additional observations from a re-analysis of the deposited data

How the results depend on the processing

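OPTN kept its direction and call in all 3 comparisons under every alternative run, and SQSTM1 did so except in STBD1 W203C vs STBD1 WT on TPM. The replicate numbers did not pair the libraries: deviations of same-numbered libraries correlated at -0.0203 to 0.0603 across genes. With a replicate block, 3 receptors passed in STBD1 WT vs plvx neo, 4 between the constructs and 2 in STBD1 W203C vs plvx neo, the same counts as without it. In STBD1 WT vs plvx neo, 5 receptors passed with the GC content and length correction and 5 with a replicate block added to it, TAX1BP1 and NCOA4 joining, and TOLLIP turned to -0.07 in both. Of all 15289 genes tested, 4591 and 4556 passed in these fits. In STBD1 W203C vs STBD1 WT, 2 receptors passed on log2(TPM + 1) and 2 on log2(TPM + 0.1), where SQSTM1 (-0.09) and FUNDC1 did not. TPM scales the count by transcript length and over the whole library. On TPM the uncalled CALCOCO2 (0.08) and NCOA4 (0.01) turned sign in that comparison, as did RETREG1 in STBD1 W203C vs plvx neo (0.06 and 0.08). On log2(TPM + 1), 1751, 1828 and 131 of all genes passed in the 3 comparisons against 4254, 4202 and 859 on counts, and 68.8% and 74.0% of the calls were higher in STBD1 W203C vs STBD1 WT and vs plvx neo, against 51.8% and 53.2%. The cause was not tested.

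Leaving out each library in turn gave counts of 3 to 3, 3 to 4 and 2 to 3 receptors. Uncalled values that then turned sign, apart from those at 0.00 in the fit with all libraries (TOLLIP between the constructs and TEX264 in STBD1 W203C vs plvx neo), were TOLLIP in STBD1 WT vs plvx neo (range -0.01 to 0.12), and in STBD1 W203C vs plvx neo TOLLIP (-0.01 to 0.11), RETREG1 (-0.12 to 0.03) and TAX1BP1 (-0.02 to 0.04). With the GC content and length correction TAX1BP1 also passed in STBD1 W203C vs STBD1 WT (-0.12, adjusted p = 0.0418 by edgeR), but not with a replicate block added (adjusted p = 0.0608), and FUNDC1 passed in neither (adjusted p = 0.104 and 0.127). RETREG1, at under 10 normalised CPM, had the lowest counts of the 10.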
